A study of Oryctolagus cuniculus with 6 samples.

Results

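Cassette exons whose length is not a multiple of 3 bases were followed in rabbit skin. A cassette exon is an internal exon that is spliced into some transcripts of a gene and left out of others, and each one here had an included form and a skipped form joined at the same flanking splice sites. The tables held 5314 cassette exons for which each form was listed in at least 1 library, and 2693 of them (50.7%) had a frame-shifting length. The other 2621 cassette exons had a length divisible by 3 and are called frame-preserving below. The names refer to length alone, since the files do not say which exons are coding or where a reading frame lies.

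Skin RNA of rabbits (Oryctolagus cuniculus) aged 30 days was sequenced in 3 libraries of genotype Prss53-/- and 3 wild-type libraries. Prss53 encodes a trypsin-like serine protease. The labels of both genotypes give CRISPR/Cas9, a nuclease system that cuts DNA at a guided site, as the treatment, and they name no founder line, guide or allele. No label says whether the 3 libraries of a genotype are 3 animals, so the p-values below measure the spread between these libraries only, and that spread may be technical.

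When a cassette exon of frame-shifting length lies inside a coding sequence, including or skipping it moves the reading frame downstream. The new frame usually meets an early stop codon, and transcripts with such a stop are often removed by nonsense-mediated decay, the cytoplasmic surveillance pathway that degrades them. A cassette exon of frame-preserving length adds or removes whole codons instead. Exons of either kind can also lie in untranslated regions, where the frame plays no part.

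The values are FPKM, a level in which the fragments of a transcript form are divided by its length and by the library's total of mapped fragments. Inclusion is the FPKM of the included form as a percentage of the FPKM of both forms. The tables list no value of 0, so a form missing from a library is written as not listed and was entered as 0. A form that was not assembled and a transcript that was absent both leave such a gap. Without read counts in the tables the depth stays unknown, and values carry no counting interval. Positions are given as in the authors' files, whose genome build is not given in the sources used here, and gene names were not paired with the Ensembl IDs.

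The 2693 exons were spread over the genome. They split evenly by remainder, with 1337 leaving 1 base and 1356 leaving 2 bases beyond whole codons, and 1363 lay on the plus strand against 1330 on the minus strand. They occupied 2583 positions, because 1 exon position can be joined to more than one pair of flanking splice sites. Placed chromosomes held 2011 of them, with 194 on chromosome 13, 177 on chromosome 1, 161 on chromosome 2, 72 on the X and 17 on chromosome 21, and unplaced scaffolds and other sequences held 682. An Ensembl gene ID was attached to 2498 (92.8%).

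Most host genes carried a single such exon. Of the 1951 hosts, 1477 had 1 frame-shifting cassette exon and 474 had more, up to 10 in each of 2 genes. Exons of 1 host share transcripts and are not independent, and 564 of the 2693 shared their skipped form with another exon, which lay between the same flanking splice sites.

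Frame-shifting cassette exons were longer than frame-preserving ones. Their median length was 118 bases (quartiles 79 and 170, range 11 to 7819), against 102 bases for the frame-preserving exons (quartiles 63 and 156, range 3 to 9450). Flanking introns of frame-shifting exons had medians of 2766 bases on the side of lower coordinates and 2845 bases on the other, whatever the strand. Around frame-preserving exons the medians were 2556 and 2522 bases. The level of both forms together, averaged over the 6 libraries, had a median of 3.71 FPKM for frame-shifting and 4.97 FPKM for frame-preserving exons. These are descriptions of the 2 kinds of exon and were not tested.

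Short cassette exons were mostly frame-preserving. Among exons of up to 27 bases, the size usually called a microexon, 32 of 175 (18.3%) had a frame-shifting length. The share was 38.7% between 28 and 50 bases, 46.2% between 51 and 75 bases and 53.5% between 76 and 100 bases. It was 55.3% between 101 and 150 bases (754 of 1364), 56.3% between 151 and 200 bases, 50.9% between 201 and 500 bases and 58.9% above that. By arithmetic 2 of every 3 whole-number lengths are not multiples of 3, and the share of frame-shifting exons was below that in every length class.

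How often both forms were listed in the same library also went with frame. Of the 662 cassette exons whose 2 forms never appeared in the same library, 392 (59.2%) were frame-shifting, and of the 2017 with both forms in exactly 1 library 1175 (58.3%) were. The share was 53.2% with both forms in 2 libraries, 47.8% in 3, 46.9% in 4 and 35.4% in 5. Where both forms were listed in all 6 libraries it was 30.0% (206 of 686). What part the level of the forms or their assembly had in this order was not tested.

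**Figure D1:**
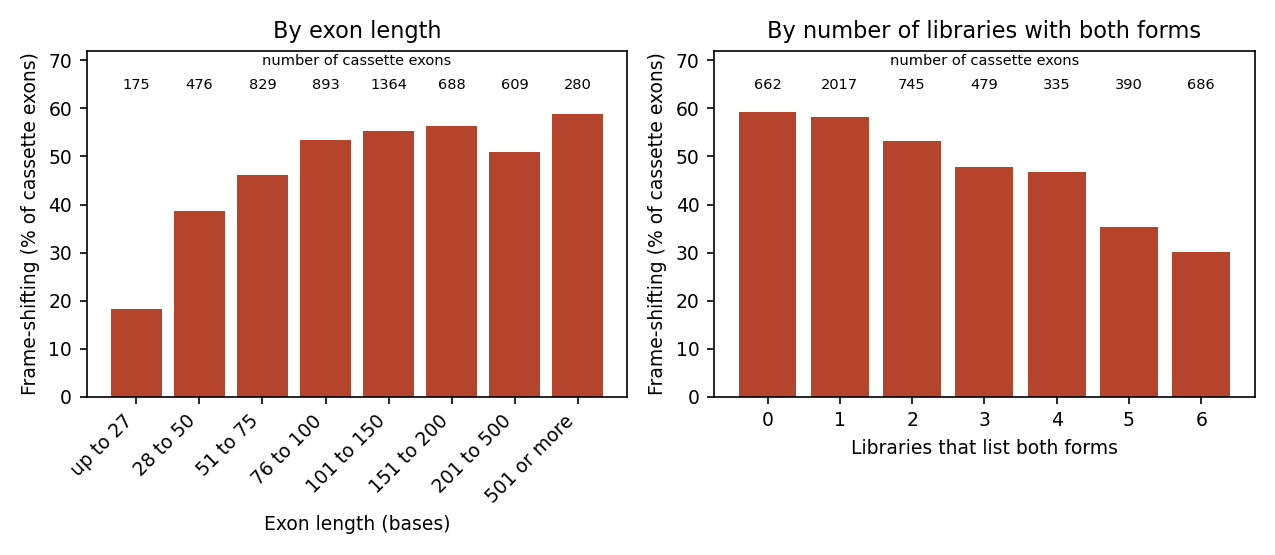
Frame-shifting exons as a percentage of all cassette exons, by exon length in bases (left) and by the number of the 6 libraries that list both forms (right); the number above each bar counts all cassette exons in it. The share is 18.3% among exons of up to 27 bases and 58.9% among the longest, and it is 59.2% where no library lists both forms and 30.0% where all 6 do.

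Inclusion was measured for exons whose forms summed to at least 1 FPKM in each of the 6 libraries. This kept 1592 of the 2693 frame-shifting exons (59.1%), in 1311 hosts, and 1781 of the 2621 frame-preserving exons (68.0%). The remaining 1101 frame-shifting exons were below that level in at least 1 library and enter no comparison of inclusion.

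Most frame-shifting exons were used almost entirely in 1 form. Averaged over the libraries, 615 of the 1592 (38.6%) had an inclusion of 90% or more and 465 (29.2%) were below 10%. Among frame-preserving exons 25.3% had 90% or more and 26.1% were below 10%. Inclusion between 40% and 60% was uncommon, with 30 frame-shifting exons from 40% to 50% and 33 from 50% to 60%, against 61 and 82 frame-preserving exons.

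The same contrast was present in each library. The median inclusion of frame-shifting exons was 67.3%, 67.1% and 65.3% in knockout replicates 1 to 3 and 66.5%, 67.1% and 66.0% in wild-type replicates 1 to 3. That of frame-preserving exons was 45.1%, 48.4% and 48.3% in knockout and 45.5%, 47.5% and 44.9% in wild type, so the median of frame-shifting exons was the higher one in all 6 libraries. The means over exons lay closer together. The mean was 53.7% in knockout and 54.0% in wild type for frame-shifting exons, against 49.0% and 48.7% for frame-preserving exons. Both forms were listed for 42.0% ± 3.15 of the frame-shifting exons in knockout and 42.6% ± 2.54 in wild type (SD over 3 libraries), against 56.2% ± 2.26 and 58.3% ± 1.66 of the frame-preserving exons. The libraries share their exons, so this repeats 1 set of exons in 6 samples and no test was made across exons.

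**Figure D2:**
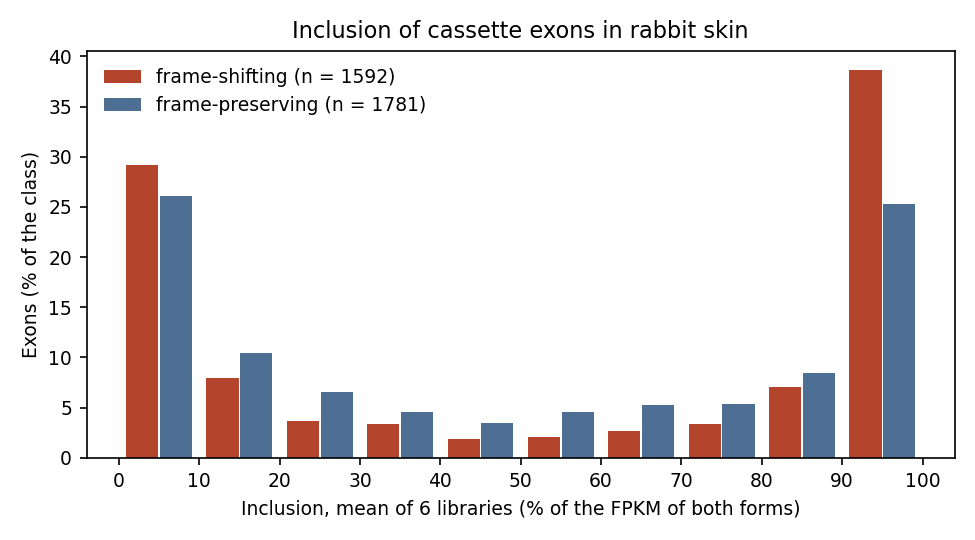
Inclusion of each measured cassette exon averaged over the 6 libraries, in steps of 10 percentage points (x axis), as a percentage of the 1592 frame-shifting or 1781 frame-preserving exons (y axis). Both kinds pile up at the ends, and the top step holds 38.6% of the frame-shifting and 25.3% of the frame-preserving exons.

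The gap in median inclusion was smaller where both forms were listed throughout, and it turned at 1 level. Of the 1592 measured exons 204 (12.8%) had both forms in all 6 libraries, against 476 of 1781 frame-preserving exons (26.7%). Among those 204 the median was 50.8% in knockout and 51.2% in wild type, against 46.8% and 46.6% for the frame-preserving exons. From 20 to 50 FPKM the median of the mean inclusion was 46.1% for 127 frame-shifting exons and 53.3% for 206 frame-preserving exons, while in the 4 other level classes it was higher for frame-shifting exons. At 50 FPKM and above 41.7% of 24 frame-shifting exons and 59.3% of 54 frame-preserving exons had both forms in every library, and below 5 FPKM 7.65% of 614 and 12.3% of 552 did.

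Exon length went with inclusion in both kinds. Among frame-shifting exons the median inclusion, taken over exons of their mean over 6 libraries, was 63.1% up to 27 bases (20 exons), 39.9% from 28 to 50 bases and 30.6% from 51 to 75 bases. It was 65.7% from 76 to 100 bases, 83.0% from 101 to 150 bases and 90.1% from 151 to 200 bases (230 exons). Above that it was 62.0% from 201 to 500 bases and 10.6% in longer exons (69 exons). Frame-preserving exons were lower in the classes up to 50 bases and from 76 to 200 bases, with medians of 23.4%, 27.1%, 47.1%, 61.9% and 75.9%, and higher from 51 to 75 bases (33.5%), from 201 to 500 bases (67.4%) and above (18.7%). The mean of frame-shifting exons moved less than their median, from 46.2% at 51 to 75 bases to 62.1% at 151 to 200 bases. From 51 to 75 bases the mean of frame-preserving exons was 44.9%, below that of frame-shifting exons.

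**Figure D3:**
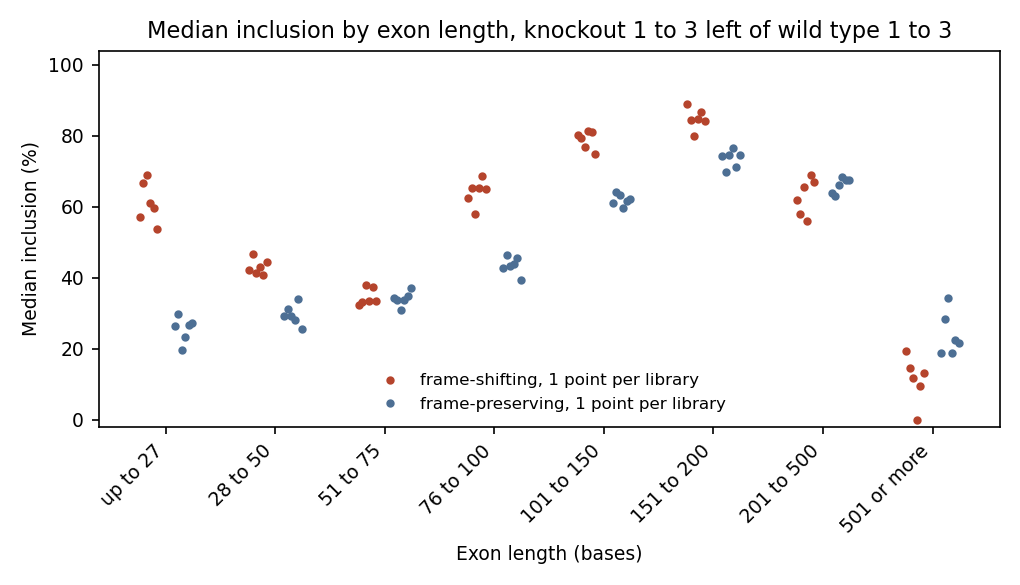
Median inclusion (y axis, %) of frame-shifting and frame-preserving cassette exons by exon length in bases (x axis), with 1 point for each library, knockout replicates 1 to 3 left of wild-type replicates 1 to 3 within each cluster. From 76 to 200 bases every library's median is higher for frame-shifting exons, and in every length class the knockout and wild-type points of the frame-shifting exons overlap.

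Exons leaving 2 bases were included more than exons leaving 1 base in both genotypes. Exons leaving 1 base had a median inclusion of 60.2% ± 2.24 in knockout and 61.8% ± 2.02 in wild type, and exons leaving 2 bases 70.1% ± 1.65 in knockout and 70.8% ± 0.981 in wild type (SD over 3 libraries). For each remainder the medians of the genotypes differed by less than the spread between replicates. The mean inclusion of exons leaving 1 base was 52.2% ± 0.229 in knockout and 52.9% ± 0.481 in wild type, a gap larger than either SD. That of exons leaving 2 bases was 55.2% ± 0.597 in knockout and 55.1% ± 0.625 in wild type. This gap went the other way and was smaller than either SD. The remainders lay closer together in the mean than in the median.

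Summed over the frame-shifting exons, inclusion differed between genotypes by less than the replicate spread. The 3 knockout libraries had a median inclusion of 66.6% ± 1.09 and the 3 wild-type libraries one of 66.6% ± 0.560 (SD). The mean inclusion was 53.7% ± 0.415 in knockout and 54.0% ± 0.552 in wild type. An inclusion of 0%, the skipped form alone, was seen for 26.3% ± 0.953 of the exons in knockout and 25.7% ± 1.67 in wild type. An inclusion of 100% was seen for 31.7% ± 2.48 in knockout and 31.7% ± 1.36 in wild type. Per exon, the knockout mean minus the wild-type mean had a median of -0.246 percentage points and quartiles of -5.33 and 5.21 points.

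Knockout replicate 3 stood apart from the other libraries. The mean absolute difference in inclusion over the 1592 exons was 12.0 points between knockout replicates 1 and 3 and 11.3 points between knockout replicates 2 and 3, against 8.65 points between knockout replicates 1 and 2. Wild-type pairs differed by 8.05 to 8.38 points, and knockout and wild-type pairs without knockout replicate 3 by 8.92 to 9.76 points. Pairs of knockout replicate 3 with a wild-type library differed by 12.3 to 12.6 points. The number of frame-shifting exons with both forms listed was 771, 884 and 896 in knockout replicates 1 to 3 and 820, 936 and 901 in wild-type replicates 1 to 3.

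Inclusion was compared between genotypes with limma on the share over all 3373 measured cassette exons. Of the 1592 frame-shifting exons 1 passed an adjusted p of 0.05, 0 higher and 1 lower in knockout. Over all cassette exons 0.237% passed, 0.119% higher and 0.119% lower. An unadjusted limma p under 0.05 was reached by 83 frame-shifting exons (5.21%), 32 higher and 51 lower in knockout, against 5.57% of all cassette exons. The libraries of the 2 genotypes did not overlap for 110 (6.91%), against 8.42% of all cassette exons. Of these, 46 were higher in knockout and 64 lower, against 4.42% and 4% of all cassette exons. A difference of 25 points or more between the group means was present for 77 exons (4.84%), against 4.71% of all cassette exons. A difference of 50 points or more was present for 7 of the 1592, against 15 of all 3373. The count of 1 moved with single libraries. Without knockout replicate 1, 2 or 3 it was 21, 0 and 26 frame-shifting exons (1.29%, 0% and 1.51%), against 1.34%, 0% and 1.62% of all cassette exons. Without wild-type replicate 1, 2 or 3 it was 15, 16 and 23 (0.924%, 0.993% and 1.41%), against 1.23%, 1.2% and 1.4% of all.

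**Figure D4:**
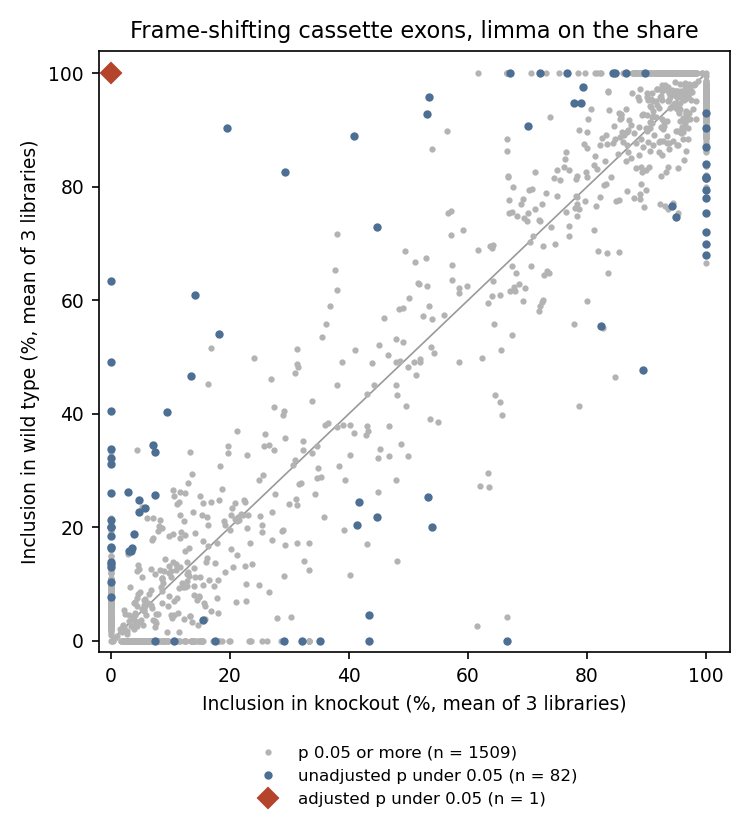
Mean inclusion of each of the 1592 frame-shifting cassette exons in 3 knockout libraries (x axis, %) and 3 wild-type libraries (y axis, %), with the diagonal of equal inclusion; the diamond is the exon with a limma adjusted p under 0.05. Most exons lie near the diagonal or in its corners, and the called exon is at 0% in knockout and 100% in wild type.

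The exon that passed was 143 bases long and lay on the plus strand of an unplaced scaffold, at 125843 to 125985, between introns of 1729 and 1995 bases. It belongs to the gene with the Ensembl ID ENSOCUG00000027434. Its included form was not listed in any knockout library and had 7.10, 8.58 and 6.85 FPKM in the wild-type libraries. Its skipped form had 1.65, 5.55 and 7.41 FPKM in the knockout libraries and was not listed in wild type. Inclusion was therefore 0% in every knockout library and 100% in every wild-type library, a difference of -100 ± 6.96 points (SE; limma adjusted p = 0.0112). The SD was 0 in each genotype, so the SE comes from the variance that limma shares over all cassette exons. It is not a spread of this exon between the libraries. The 2 forms never appeared in the same library, so each genotype was represented by 1 assembled form.

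The level of that gene differed less than its forms. It had 5.24, 10.8 and 12.6 FPKM in knockout and 7.10, 8.58 and 6.85 FPKM in wild type, which overlap (limma adjusted p = 0.722). In wild type the gene value was that of the included form itself. The inclusion call held in 5 of the 6 fits without 1 library, and without knockout replicate 2 its limma adjusted p was 0.0501.

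A second exon passed in 5 of the 6 fits without 1 library but not with all of them. This 124-base exon (chr11:13719120-13719243, minus strand) had 0% inclusion in the 3 knockout libraries and 20.1%, 22.3% and 18.1% in the wild-type libraries. Its included form was not listed in knockout and had 2.35, 2.93 and 1.58 FPKM in wild type, while the skipped form had 9.51, 8.32 and 5.52 FPKM in knockout and 9.34, 10.2 and 7.12 FPKM in wild type. The difference was -20.2 ± 3.53 points (SE; limma adjusted p = 0.128 with all libraries). In all, 86 of 1859 frame-shifting exons (4.63%) passed in at least 1 of these 6 fits, against 4.37% of all cassette exons, 77 of them in 1 fit and 9 in more than 1, and 0 passed in all 6. These exons were chosen after their values were seen.

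Further exons passed in 2 of these 6 fits, each with a form that 1 genotype did not list. A 166-base exon (chr4:35383067-35383232) had 0% inclusion in knockout and 26.9%, 30.7% and 39.2% in wild type (limma adjusted p = 0.0997). A 46-base exon (chr15:11917912-11917957) was higher in knockout, with 100% in the 3 knockout libraries and 63.9%, 69.5% and 76.3% in wild type (limma adjusted p = 0.0989). An 88-base exon (chr13:37444127-37444214) had 85.3%, 88.3% and 86.4% in knockout and 100% in wild type (limma adjusted p = 0.251). Its difference was -13.3 points, and -23.5 points with duplicated rows of an event summed (limma adjusted p = 0.0966). None of these differences passed with all 6 libraries, although the genotypes did not overlap.

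Of the 119 frame-shifting exons with both forms listed in all 6 libraries and summing to at least 5 FPKM, 0 passed with limma, and 2 (1.68%) had an unadjusted p under 0.05, against 3.97% of all cassette exons so listed. The genotypes did not overlap for 6 of them that were higher (5.04%) and 9 that were lower in knockout (7.56%), against 9.27% and 7.51% of all. The widest gap was at a 95-base exon (chr16:65852433-65852527, minus strand). Its inclusion was 77.5%, 86.0% and 83.8% in knockout and 65.3%, 37.2% and 63.9% in wild type, a difference of 26.9 ± 9.28 points (SE; limma adjusted p = 0.605). Wild-type replicate 2 was the lowest there by a wide margin.

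One of the exons with higher values in knockout lay on the X. This 46-base exon (chrX:33551806-33551851, plus strand) had 48.2%, 36.9% and 40.0% inclusion in knockout and 20.7%, 28.3% and 24.5% in wild type, a difference of 17.2 ± 7.15 points (SE; limma adjusted p = 0.667). A 55-base exon at a high level (chr13:27249943-27249997) had 73.0%, 73.8% and 77.2% in knockout and 71.0%, 70.5% and 68.5% in wild type. Its included form had 59.7, 69.9 and 92.3 FPKM in knockout and 49.1, 47.6 and 42.7 FPKM in wild type (limma adjusted p = 0.266), and the gap between the shares of the genotypes was 4.68 ± 5.36 points (SE).

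Among those lower in knockout, a 163-base exon (chr3:53194229-53194391, minus strand) had 30.8%, 29.5% and 20.3% inclusion in knockout and 50.3%, 35.6% and 52.5% in wild type. A 187-base exon on an unplaced scaffold (27407 to 27593) had 36.1%, 28.9% and 41.4% in knockout and 47.6%, 61.9% and 50.9% in wild type. A 113-base exon (chr17:43136700-43136812) had 54.4%, 63.8% and 59.6% in knockout and 73.8%, 69.2% and 74.3% in wild type. Their differences were -19.3 ± 8.28, -18.0 ± 8.26 and -13.2 ± 6.41 points (SE), and each had a limma adjusted p of 0.667. In each the lowest wild-type library was above the highest knockout library. The other 3 exons with higher values in knockout differed by 3.61 to 9.32 points and the other 6 with lower values by -7.90 to -18.7 points, with limma adjusted p from 0.667 to 0.80. Without knockout replicate 3 the difference of 9.32 points was 4.73 and that of -18.7 points was -7.81. With duplicated rows of an event summed, the difference of -19.3 points was -14.7.

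The most abundant frame-shifting exons were compared by the same fit. The highest was a 44-base exon (chr4:39726901-39726944, plus strand), with an included form at 352, 307 and 430 FPKM in knockout and 331, 258 and 263 FPKM in wild type. Its inclusion was 74.1%, 64.6% and 72.9% in knockout and 68.9%, 65.9% and 63.3% in wild type, and the groups overlapped (difference 4.52 ± 6.26 points, SE; limma adjusted p = 0.713).

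A 68-base exon (chr8:26817741-26817808) had its highest levels of both forms in knockout replicates 1 and 3. Its skipped form had 259, 134 and 227 FPKM in knockout and 117, 96.7 and 144 FPKM in wild type, and its included form 119, 46.0 and 121 FPKM in knockout and 55.7, 40.5 and 65.0 FPKM in wild type. Inclusion was 31.6%, 25.5% and 34.8% in knockout and 32.2%, 29.5% and 31.1% in wild type, a difference of -0.305 ± 6.58 points (SE; limma adjusted p = 0.989).

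The other 6 of the 8 most abundant exons had both forms in 1 to 4 libraries. At chr4:70394749-70394870 (122 bases) the included form was listed in no knockout library and in wild-type replicates 1 and 2, at 298 and 271 FPKM, while the skipped form was listed in every library. At chr4:77887384-77887508 (125 bases) inclusion was 11.6%, 0% and 0% in knockout and 21.02%, 17.2% and 18.5% in wild type (limma adjusted p = 0.523). At chr19:42448171-42448327 (157 bases) the skipped form was listed in knockout replicate 3 alone, at 126 FPKM. The exons at chr19:16765919-16765962, chr18:13786118-13786361 and chr13:121130799-121130929 likewise had 1 library with both forms. In these a form of 28.6 to 126 FPKM was listed in 1 library and in none of its replicates.

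The shortest measured exons were 17 bases long. The one at chr16:69147775-69147791 had an inclusion of 69.9%, 72.2% and 100% in knockout and 100%, 81.2% and 100% in wild type. A second (chr7:15972331-15972347) was skipped in every library but knockout replicate 1, where its inclusion was 0.437%. Another, on an unplaced scaffold, was included at 88.5% or more everywhere. A 19-base exon (chr3:145679252-145679270) had both forms in all 6 libraries, with 56.4%, 79.7% and 79.8% in knockout and 67.8%, 59.1% and 47.2% in wild type (limma adjusted p = 0.667). Short exons thus ranged from almost always skipped to almost always included.

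The longest measured exons had low inclusion in most libraries. At chr9:14030281-14037998 (7718 bases) the long exon was listed in wild-type replicate 3 alone, at 44.7% inclusion. A shorter version with the same start (4799 bases) was listed in knockout replicates 2 and 3, at 22.1% and 54.1%. Both versions share 1 skipped form, and each share sets 1 version alone against it. An inclusion of 0% for 1 version therefore does not mean that the other was skipped. The exon of 6280 bases at chr1:70653218-70659497 had 0%, 37.6% and 16.1% in knockout and 0%, 22.5% and 0% in wild type. In these 3 exons each long form was listed in 1 to 3 libraries.

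The included and skipped forms were then compared as levels. A total of 2410 forms of frame-shifting exons had 1 FPKM or more in at least 3 libraries, and with limma on log2(FPKM + 1) 8 were higher and 17 lower in knockout at an adjusted p under 0.05. Over all 5196 forms of cassette exons 0.346% were higher and 0.597% lower. Of the 25 called forms 22 reached 1 FPKM in libraries of 1 genotype only. They entered the test through the genotype in which they were high, so their calls restate that the other genotype had little or none and support nothing further, and no p or fold change is given for them. In a separate limma fit of only the forms listed in all 6 libraries, 0 of 1848 passed (0 of all 4047). Of the 1848, 262 (14.2%) had an unadjusted limma p under 0.05, against 13.7% of all cassette forms so listed. Without wild-type replicate 1, 2 or 3 the count of 25 was 2, 0 and 1, and without knockout replicate 1, 2 or 3 it was 14, 8 and 12. These fits still required 1 FPKM in at least 3 libraries. A form at that level in 1 genotype only therefore left the test without a library of that genotype, so part of the fall was fixed by the filter.

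The other 3 called forms were listed in every library. The included form of a 139-base exon (chr2:92992883-92993021) had 41.8, 35.3 and 46.8 FPKM in knockout and 19.0, 17.1 and 15.8 FPKM in wild type, a log2 fold change of 1.20 ± 0.17 (SE; limma adjusted p = 0.0376). Its inclusion was 100% in every library but wild-type replicate 3 (91.7%). The skipped form of a 119-base exon (chr4:83369562-83369680) had 10.2, 15.8 and 12.0 FPKM in knockout and 1.37, 0.812 and 2.98 FPKM in wild type (log2 fold change 2.39 ± 0.33, SE; limma adjusted p = 0.0376). The skipped form of a 22-base exon (chr7:138011900-138011921) had 1.88, 1.75 and 0.255 FPKM in knockout and 18.7, 8.76 and 14.3 FPKM in wild type (log2 fold change -2.74 ± 0.41, SE; limma adjusted p = 0.0413). The genotypes did not overlap in any of the 3. Each lost the call in all 6 fits without 1 library and in the fit of only the forms listed in all 6 libraries.

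The forms called through 1 genotype are described by their values. Some were included forms that knockout libraries did not list. The included form of a 52-base exon (chr12:23800680-23800731, minus strand) was not listed in knockout and had 7.97, 7.43 and 8.20 FPKM in wild type. Its skipped form had 20.6, 11.1 and 18.3 FPKM in knockout and 11.05, 8.92 and 5.46 FPKM in wild type, so knockout was at 0% inclusion and wild type at 41.9%, 45.4% and 60.0% (limma adjusted p for the share = 0.0940). The gene as a whole had 34.4, 38.5 and 40.4 FPKM in knockout and 44.2, 33.0 and 28.1 FPKM in wild type, which overlap.

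The included form of a 1598-base exon (chr15:103870554-103872151) was not listed in knockout and had 2.53, 4.11 and 2.35 FPKM in wild type. Exons of 152 and 155 bases in 1 gene (chr11:71391935-71392086 and chr11:71413650-71413804) had the same included-form values, not listed in knockout and 2.31, 2.92 and 2.16 FPKM in wild type, because the same assembled transcript carried both. They are 1 measurement and not 2. At chr15:92289113-92289266 (154 bases) neither form was listed in knockout, and the included form had 91.5, 105 and 85.1 FPKM in wild type. The gene itself had 201, 170 and 264 FPKM in knockout and 106, 112 and 103 FPKM in wild type (limma adjusted p = 0.0888).

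At other exons the skipped form was not listed in knockout. The skipped form of a 77-base exon on an unplaced scaffold (823121 to 823197) was not listed in knockout and had 11.7, 9.09 and 9.09 FPKM in wild type. Its included form had 25.4, 29.6 and 37.2 FPKM in knockout and 24.4, 28.3 and 24.7 FPKM in wild type, and inclusion was 100% in knockout against 67.6%, 75.7% and 73.1% in wild type (limma adjusted p for the share = 0.0940). The skipped form of a 62-base exon (chr17:70502705-70502766) was not listed in knockout and had 5.44, 5.01 and 3.49 FPKM in wild type. The gene levels of both exons overlapped between the genotypes.

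Of the called forms higher in knockout, some were listed in that genotype alone. The included form of a 307-base exon (chr10:8567792-8568098, minus strand) had 8.70, 8.17 and 4.91 FPKM in knockout and was not listed in wild type, beside a skipped form of 38.0, 30.2 and 34.1 FPKM in knockout and 45.5, 43.2 and 46.2 FPKM in wild type. The skipped form of a 74-base exon (chr8:33978522-33978595) had 12.0, 15.2 and 3.11 FPKM in knockout and was not listed in wild type.

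**Figure D5:**
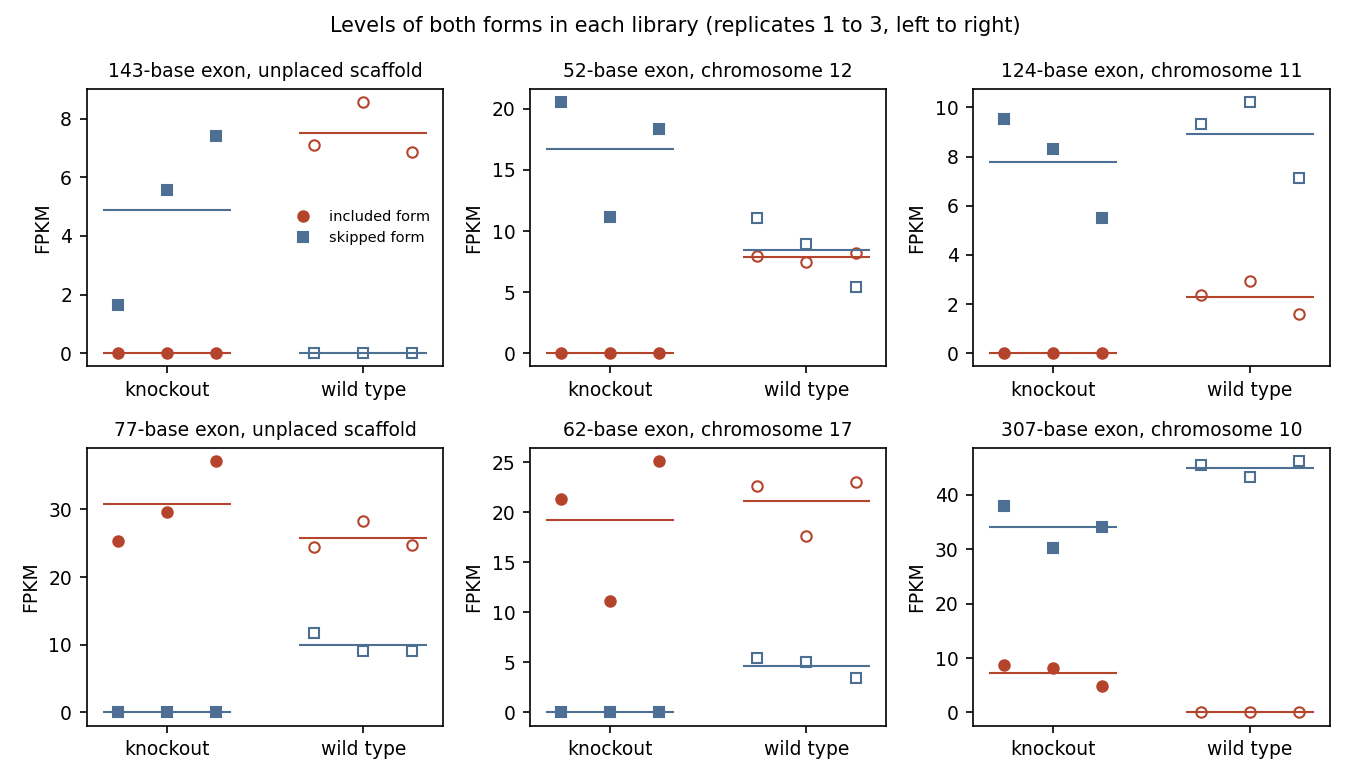
FPKM (y axis) of the included form (circles) and skipped form (squares) of 6 frame-shifting cassette exons in each library, knockout filled and left of wild type open, with lines at the group means and forms not listed drawn at 0. In each exon at least 1 form is not listed in every library of a genotype, and the 143-base exon has the skipped form alone in knockout and the included form alone in wild type.

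A form listed in all libraries of 1 genotype and none of the other was rare. The included form was found in that way in knockout for 18 of the 2693 exons (0.668%), against 0.659% of all cassette exons, and in wild type for 43 (1.60%), against 1.2% of all. The skipped form was found in that way in knockout for 29 (1.08%), against 0.997% of all, and in wild type for 31 (1.15%), against 1.11% of all. Included forms were listed in all 6 libraries for 1040 of the frame-shifting exons (38.6%) and skipped forms for 926 (34.4%), against 45.9% and 46.0% of the frame-preserving exons.

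Host genes were compared as whole genes. Of 1951 hosts 1832 were tested with limma on log2(FPKM + 1), and 8 were higher and 4 lower in knockout at an adjusted p under 0.05. Over all 10809 genes 0.546% were higher and 0.398% lower. The median log2 fold change of the tested hosts was -0.11, against -0.07 for all genes. The 12 hosts carried 20 frame-shifting exons, 4 of which had a measured inclusion, and 8 of the hosts were listed in every library. Of the 12, 6 reached 1 FPKM in libraries of 1 genotype only and so entered the test through it, and their calls support nothing further. Without knockout replicate 1, 2 or 3 the count of 12 was 6, 2 and 5, and without wild-type replicate 1, 2 or 3 it was 0, 0 and 1. Here too a host at 1 FPKM in 1 genotype only left the test without a library of that genotype, so part of the fall was fixed by the filter.

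The 3 hosts that rose in knockout and had a measured exon showed no called difference in its inclusion. The gene with the Ensembl ID ENSOCUG00000004116 is the host of the 139-base exon above, and its value in each library was that of the included form, so the gene and the form are 1 measurement (limma adjusted p for the gene = 0.0296). The host of a 148-base exon (chr1:127636931-127637078) had 31.5, 31.1 and 30.4 FPKM in knockout and 15.4, 14.3 and 10.2 FPKM in wild type (limma adjusted p = 0.0432). Its exon had 87.6%, 85.8% and 83.1% inclusion in knockout and 100%, 90.9% and 85.2% in wild type (limma adjusted p = 0.667). The host of a 38-base exon (chr13:12973003-12973040) had 26.3, 21.2 and 23.5 FPKM in knockout and 11.3, 11.4 and 8.33 FPKM in wild type (limma adjusted p = 0.0460), with an inclusion above 93% in every library. Of the 6 fits without 1 library, the first of these hosts passed in 1 and the other two in 0.

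Hosts that fell included one with several frame-shifting exons. This gene on an unplaced scaffold, with 5 of them, had 3.08, 2.49 and 5.94 FPKM in knockout and 12.3, 13.3 and 14.5 FPKM in wild type (log2 fold change -1.63 ± 0.27, SE; limma adjusted p = 0.0472). Of its 5 exons 1 had a measured inclusion, at 100%, 100% and 92.7% in knockout and 100% in each wild-type library. The host of exons of 116 and 109 bases on chromosome 20 (31550298 to 31550413 and 31550894 to 31551002) had 0.809, 1.55 and 0.722 FPKM in knockout and 4.17, 4.62 and 4.22 FPKM in wild type, too low for inclusion to be measured. Knockout reached 1 FPKM in replicate 2 alone, so this host entered the test through wild type, and its call supports nothing further. Each of these 2 hosts passed in 1 of the 6 fits without 1 library.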

How the data were processed

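The deposited values are FPKM that the authors computed for transcript events (such as an exon included or skipped), per the file headers, in 1 table for each of 3 knockout and 3 wild-type skin libraries. Reads passed through bcl2fastq 2.17.1.14 and cutadapt, per the submitters' processing notes. The labels' protocols name Trizol extraction and the NEBNext Ultra RNA kit. No aligner, assembler, event caller or genome build is named: these were not given in the sources used here.

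Of 5548 included and 5418 skipped events, 234 included and 628 skipped events had no partner with the same flanking splice sites and were left out. Forms were paired within a locus and kept where each was listed in any of the libraries, together or not. The members and lists were chosen with earlier results of these data known. A gene's value is the largest of its summed first-exon events, summed last-exon events and highest single event.

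Inclusion was tested over all cassette exons whose forms summed to at least 1 FPKM in each library. Levels of forms and genes were tested as log2(FPKM + 1), with 1 FPKM or more in at least 3 libraries, a scale that understates changes of low values. Each used limma 3.58.1 in R 4.3.3 (two-sided, genotype alone, empirical Bayes with a mean-variance trend, Benjamini-Hochberg at 0.05) and was tested on simulated data. An exact permutation test of 3 against 3 cannot go below 0.1.

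Exons named are those called, then up to 12 in each direction by unadjusted p among exons with both forms listed in all 6 libraries at 5 FPKM or more and groups that do not overlap, the 8 most abundant, and the 5 shortest and 3 longest; those given for called forms or genes, or for fits without 1 library, were chosen after their values were seen. The RefSeq gene table of assembly mOryCun1.1 matched 0 of the Ensembl IDs, so Prss53, cell type markers and lists of splicing regulators and decay factors were not analysed here, nor were sequences. Alternatives changed the minimum level, the pseudocount, the scale, the trend, library weights, the replicate block, the pairing of forms and the libraries.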

Additional observations from a re-analysis of the deposited data

How the results depend on the processing

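The count of frame-shifting exons called for inclusion was 1 of 1592 also with library quality weights (6 of all 3373 cassette exons). With 0.1 FPKM added to each form it was 1 of 1592 (6 of all 3373). It was 1 of 1867 with no minimum level (2 of all 3888) and 1 of 1616 with duplicated rows summed (9 of all 3418). With skipped forms of 1 exon only it was 1 of 1352 (5 of all 2918). With 1 adjustment over cassette exons, introns, first exons and last exons together it was 1 of 1592 (22 of all 16309). The count was 2 of 1592 without the mean-variance trend (10 of all 3373 cassette exons) and 3 of 618 with a minimum of 5 FPKM (7 of all 1458). The exon called in the main fit was not among these 3, since its forms summed to 1.65 FPKM in knockout replicate 1. It was 20 of 1592 on the logit of the share (41 of all 3373). It was 0 of 204 where both forms had to be listed in all 6 libraries (1 of all 680). It was also 0 of 1577 where both forms had to appear together in 1 library (7 of all 3351). That alternative was chosen after seeing the data, and the called exon is then not a member. Leaving out 1 library gave 0 to 26 (0 to 59 of all). The 25 called forms of 2410 (49 of all 5196) became 44 with quality weights (85 of all) and 53 without the trend (97 of all). They became 16 with a pseudocount of 0.1 FPKM (30 of all) and 7 of 5167 with no minimum (16 of all 10104). They became 0 among forms listed in all 6 libraries (0 of all 4047) and 0 to 14 without 1 library (1 to 26 of all). The 12 called hosts of 1832 (102 of all 10809 genes) became 29 with quality weights (220 of all). They became 3 with a pseudocount of 0.1 FPKM (61 of all) and 7 of 1951 with no minimum (73 of all 14797). Among genes listed in all 6 libraries they became 4 of 1784 (37 of all 10400). Without 1 library they became 0 to 6 (8 to 77 of all). In the fits without 1 library, forms and hosts at 1 FPKM in 1 genotype only left the test without a library of that genotype. Beyond this, the cause of these changes was not tested.

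With the replicate number as a block the counts were 0 exons, 5 forms and 4 hosts. Over all cassette exons, cassette forms and genes they were 0, 13 and 81. The numbers pair no samples in the labels, and the deviations of libraries with the same number 1, 2 or 3 correlated by 0.0034, 0.051 and 0.015 for inclusion across exons, -0.044, 0.117 and 0.066 for forms and -0.0050, 0.144 and 0.047 for genes. Number 2 was the highest for each measure, and the 3 numbers were not all over 0.1 in any.

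Median inclusion was 68.8% in knockout and 68.0% in wild type with a minimum of 5 FPKM, 50.8% and 51.2% with both forms in all 6 libraries, and 74.1% and 75.1% with skipped forms of 1 exon only. The wild-type median was 67.3% with 1 pair of forms per exon position, chosen after seeing the data, and 65.5% to 66.5% without 1 library. Alternative values, 771 in all, were taken for 61 exons, forms and hosts. These were the called ones, exons named for groups that did not overlap, and exons called in more than 1 fit without 1 library. The most abundant, shortest and longest exons were not among them. Of the 771 values, 557 kept their direction and side of the threshold, 188 lost the call, 26 gained one and 0 changed direction. Groups that do not overlap keep their direction when 1 library is left out, so part of that 0 was fixed by the choice. FPKM without counts sets no depth, so a form that is not listed cannot be told apart from one too rare to be assembled.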
